A study of Mus musculus with 66 samples.

Results

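The genes described here encode the proteins of the cytosolic ribosome. They were taken by symbol: Rpl or Rps followed by a digit, with Rplp0, Rplp1 and Rplp2 added, and with the Rps6k kinases and pseudogene symbols ending in "-ps" left out. The rule found 84 genes among the 15856 in the 3'READS table, of which 52 were named for the large subunit and 32 for the small subunit. The RNA-seq table listed 42 of them among 9999 genes, 28 large and 14 small, and all 42 were in the 3'READS table too. Of the 84 symbols, 8 do not name a core component that is present in most cells: Rpl3l, Rpl10l, Rpl22l1, Rpl36al, Rpl39l, Rpl7l1, Rps27l and Rps19bp1. The gene Rps19bp1 encodes a protein that binds Rps19, and Rpl7l1 is a nucleolar relative of Rpl7, so the symbol rule is slightly wider than the ribosome.

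Cytosolic ribosomal proteins assemble with ribosomal RNA in the nucleolus and are then exported as a large and a small subunit. Their genes are short, are transcribed at high rates, and usually start at a C followed by a run of pyrimidines, the 5' terminal oligopyrimidine (TOP) tract through which mTOR and LARP1 control their translation. Many of them carry small nucleolar RNAs (snoRNAs) in their introns, and mammalian genomes hold many processed pseudogenes, intron-less copies of their mRNAs.

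The cells were C2C12 mouse myoblasts, an established muscle cell line, transfected for 48 h with 50 nM siRNA. The groups were siCtrl (a non-specific siRNA), siPaf1, siCdc73 and siSki8, against 3 subunits of the Paf1 complex (Paf1C), which travels with RNA polymerase II (Ski8 is encoded by Wdr61). RNA-seq measured reads over the coding region, and 3'READS counted reads that end in a poly(A) tail at each cleavage and polyadenylation site (pA site). Each assay had 7 libraries, with siCtrl, siPaf1 and siCdc73 in batch 1 and in batch 2 and siSki8 in batch 2 alone, so siSki8 had no replicate and its p-values rested on the spread of the other groups. Values below are in the order siCtrl, siPaf1, siCdc73 and siSki8, batch 1 before batch 2. In bulk RNA, a change in the make-up of the culture and a change within each cell cannot be told apart.

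Library totals ran from 5302728 to 14340927 reads in 3'READS and from 2796693 to 8160386 in RNA-seq, where siPaf1 of batch 2 was the shallowest. The siRNA targets fell in their own libraries: Paf1 was at 120 and 163 CPM (counts scaled to a common library total) in RNA-seq of siCtrl against 22.9 and 31.8 after siPaf1, Cdc73 at 122 and 100.3 against 14.6 and 19.3 after siCdc73, and Wdr61 at 55.7 and 132 against 5.02 after siSki8. The myoblast markers Des, Vim, Myf5 and Cdh15 were read in every library of both assays, while Myod1 did not exceed 0.597 CPM in 3'READS. Of the other listed myoblast markers, Itga7 was at 44.9 to 150 CPM in 3'READS and Pax7 at or under 0.628 CPM. In RNA-seq Pax7 ran from 1.72 CPM in siSki8 to 53.2 in siCtrl of batch 1. The leukocyte gene Ptprc stayed at or under 1.30 CPM in RNA-seq, and Cd68 was at 1.81 to 6.14 CPM in 3'READS. The epithelial keratin Krt8 reached 18.8 and 54.0 CPM in RNA-seq after siCdc73, against 0.157 and 1.03 in siCtrl. Other epithelial genes stayed low after siCdc73: Epcam had 0.950 and 0.280 CPM in RNA-seq, and Cdh1 had 0.566 and 1.05 CPM in 3'READS. The muscle gene Myh1 was at 16.6 and 70.1 CPM after siPaf1, against 0.626 and 2.23. Of 9 listed genes of differentiated muscle, 7 had a log2 change above 0 after siPaf1 in 3'READS (fit without a batch term). Myog did not rise in both batches, at 6.78 and 9.40 CPM against 6.36 and 14.2 in siCtrl. Their part in the results below was not tested.

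The ribosomal protein genes spanned a wide range in 3'READS, in which each mRNA gives a read at its end whatever its length. The 5 highest genes held 64.6% of all reads of the 84, and 7 genes were among the 100 highest of the whole table. In contrast, 25 genes averaged under 10 CPM and 8 under 1 CPM, while 28 averaged at least 100 CPM. Rps15, a small subunit protein, had 9993, 6164, 10210, 6699, 11250, 4807 and 4014 CPM. Rpl8, of the large subunit, stood at 7983, 5242, 9437, 7781, 11030, 5553 and 4101 CPM, and so had its lowest value in siSki8, as Rps15 did. Rps27l, the paralog of Rps27 that p53 is known to induce, differed from both in being higher in batch 2: it was at 2799 and 4317 CPM in siCtrl, 3209 and 4157 in siPaf1, 2945 and 4090 in siCdc73, and 3660 in siSki8. Rpl31 had a mean of 3110 CPM. The spread between libraries of these 4 genes, an SD of 618 to 2870 CPM (n = 7), overlapped for Rps15 and Rpl8, whose order therefore could not be fixed.

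The 3' ends of 3 core genes and of Rps27l are shown because each gene's level in 3'READS is read from this site. Each line gives the last 30 bases before cleavage in mm9, 5' to 3' on the strand of the gene, with the poly(A) signal AATAAA in capitals where it falls within these bases. Rps15 lies at chr10:79756830-79756859 (plus strand), Rpl8 at chr15:76736715-76736744 (plus), Rpl31 at chr1:39428186-39428215 (plus) and Rps27l at chr9:66797253-66797282 (plus).
Rps15: ggccAATAAAgactggttttggtccctgga
Rpl8: aggagctAATAAAgtacgtcctttggctaa
Rpl31: gtgtcaAATAAAgttgcagaactgccttca
Rps27l: ttttataaagtctacaacaatgatctccta
The core genes carried the canonical hexamer, and Rps27l held neither AATAAA nor ATTAAA in the last 40 bases. Rps15, Rpl8 and Rpl31 each had a main site with 100% of the sense reads to 3 digits, whereas the main site of Rps27l held 75.2%. In the members as a whole, AATAAA stood within the last 40 bases of 62 of 83 main sites (74.7%), ATTAAA alone at 9 and neither at 12. Among all genes, the shares were 64.3%, 16.0% and 19.8% of 14965 main sites. Among other genes of at most 10 kb and at least 100 CPM, they were 74.2%, 15.6% and 10.2% of 450. The share of AATAAA in the members was thus close to that of other short, highly expressed genes. A run rich in A just downstream of a site (at least 6 of 10 bases), as internal priming would need, was found at 0 of 83 main sites of members, against 0.829% of all main sites.

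At the low end of 3'READS, Rpl3l, the muscle paralog of Rpl3, had 5 reads in all, Rpl39l had 10 and Rpl10l had 20. All reads of Rpl39l and Rpl10l, both known from testis, came from the batch 2 library of siPaf1. Several core proteins that every ribosome holds were nearly as low: Rpl29 had 20 reads, Rpl24 had 25, and Rps18 and Rps19 had 35 each. Rps19, mutated in Diamond-Blackfan anaemia, was at 156 and 381 RPKM (reads scaled to transcript length and library total) in RNA-seq of siCtrl, while its 3'READS level was at most 1.32 CPM in any library.

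In RNA-seq, read here in RPKM because genes are compared, the acidic stalk protein Rplp1 was highest with a mean of 4755, followed by Rpl4 at 3023 and Rpl35a at 2614 RPKM. Rplp1 ran from 1597 RPKM in siCtrl of batch 1 to 11678 in siCdc73 of batch 2, and its SD of 3920 (n = 7) was wider than its distance from Rpl4. The same gene averaged only 18.7 CPM in 3'READS. The lowest values above 0 were those of Rpl3l at 0.0649, Rpl29 at 1.35 and Rpl5 at 6.11 RPKM. Rpl10l and Rpl39l were listed at 0 in every library. Over the 42 genes in both tables, Spearman's rho between mean RPKM and mean CPM was 0.6, a description over genes that share libraries.

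**Figure D1:**
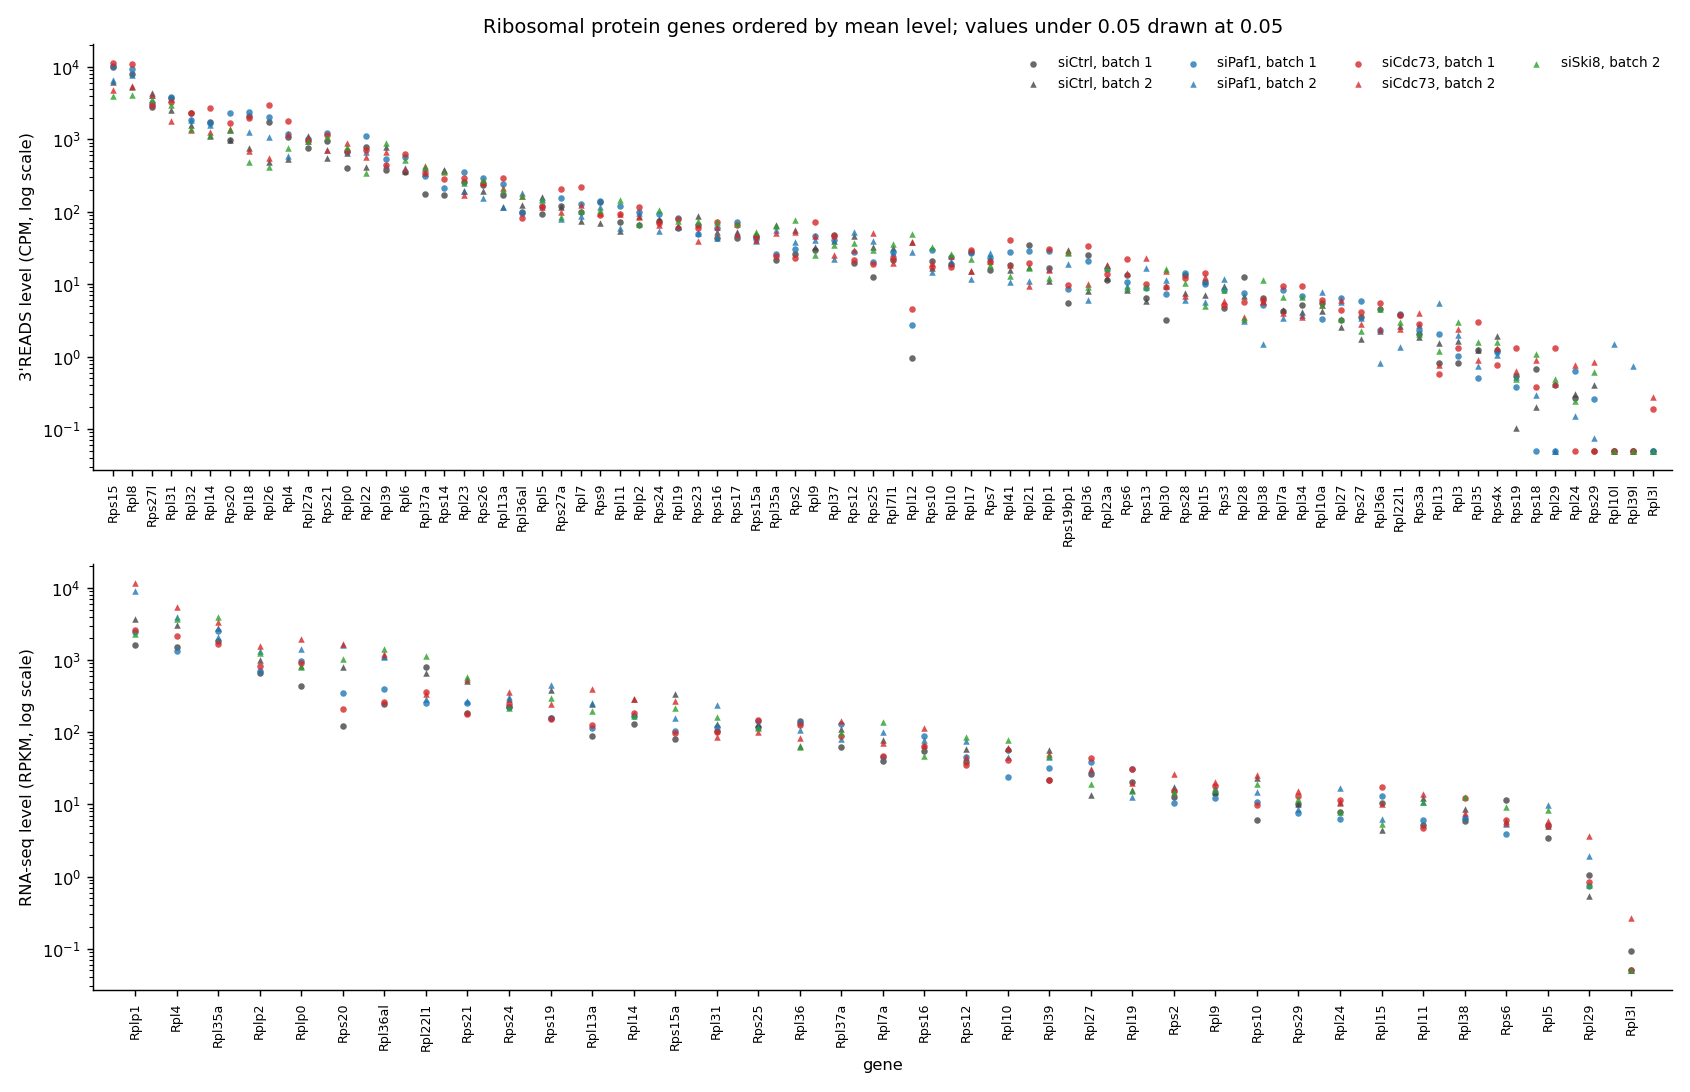
Level of the ribosomal protein genes reported here in each of the 7 libraries of an assay, on log axes, in 3'READS (CPM, upper panel) and RNA-seq (RPKM, lower panel), with the genes ordered by their mean, circles for batch 1, triangles for batch 2 and colours for the siRNA. Rps15 and Rpl8 stand at the top of the genes shown for 3'READS with means of 7591 and 7304 CPM, and Rpl12 shows its batch 1 libraries far below those of batch 2.

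Ribosomal protein genes had little sequence that is unique in the genome. Both deposited tables hold only uniquely mapped reads, so every 32-base word of the annotated coding exons and of the last 100 bases of each transcript was looked up in mm9. In the members, a median of 3.81% of the coding words occurred only in their own place (n = 83), and 31 genes had none. In 447 other genes of at most 10 kb and at least 100 CPM, the median was 100%. For the transcript end the median was 24.5% in 82 members against 100% in the same 447 genes, with 29 members at 0% and 22 at 100%. Even among the 27 members that were themselves short and at 100 CPM or more, the medians were 10.8% for the coding exons and 65.2% for the end.

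Levels and unique sequence moved together to a degree. The 28 members at 100 CPM or more had a median of 63.0% unique words at the transcript end, the 31 from 10 to under 100 CPM had 21.7%, and the 25 under 10 CPM had 0%. Spearman's rho was 0.37 for 3'READS against the transcript end (n = 82), 0.2 against the coding exons (n = 83) and 0.4 for RNA-seq RPKM against the coding exons (n = 42). Single genes went against the trend, among them Rpl3l, with 100% of its words unique and 5 reads. Rpl31 and Rpl5 had 0% unique coding words and 100% unique annotated ends, and Rpl31 was among the 5 highest in 3'READS. The main sites of Rpl31 and Rpl5 lay at -538 and -951 bases from the nearest annotated end, so their reads fell on other bases. Of 82 main sites, 61 lay within 100 bases of an annotated end. For the rest, the end words do not describe the sequence that 3'READS read, which also limits the medians and rho above. Rpl8 (86.7% coding, 98.6% end) could be read almost whole. Rps15 was among the highest with only 10.1% of its end unique, and Rpl36al averaged 131 CPM with 0%. Rpl29 had 1.29% and 0%, with a median of 23 copies of its coding words. The part of mappability in the ranking of the genes was not tested. Reads of near-identical copies cannot be assigned with certainty, so a level of a gene with few unique words is uncertain, while a comparison of the same gene between libraries uses the same sequence.

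**Figure D2:**
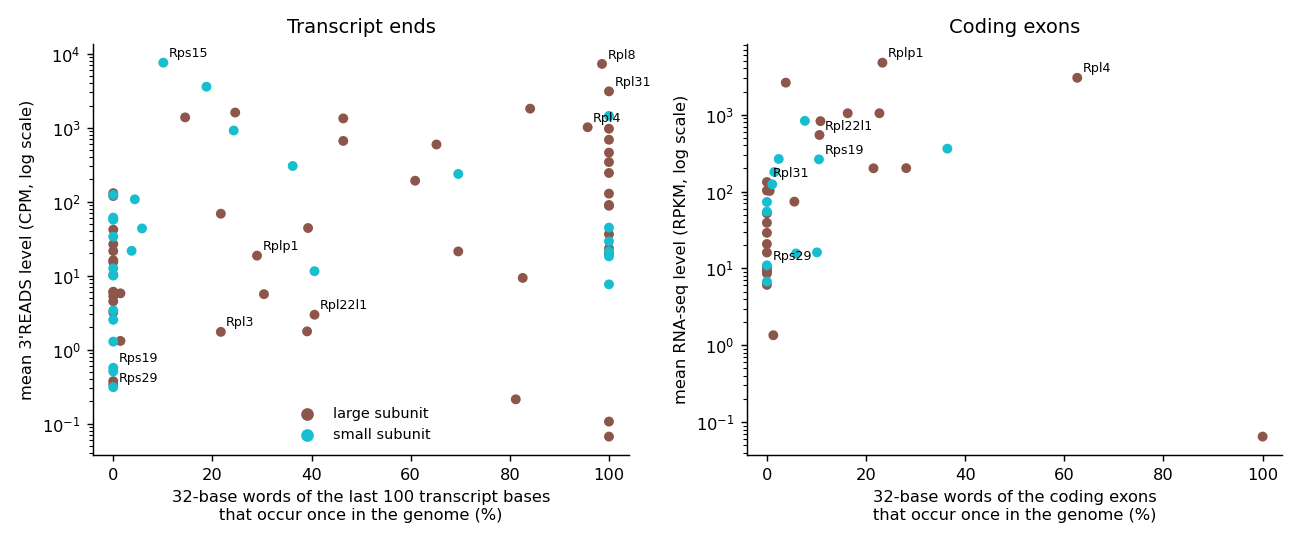
Mean level of the members reported here on a log axis against the percentage of 32-base words that occur at 1 place only in mm9, for the last 100 transcript bases with 3'READS (CPM, left) and for the coding exons with RNA-seq (RPKM, right), coloured by subunit. Transcript ends gather at 0% and at 100%, and the coding exons of most members lie near 0%.

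The share of all reads that fell on the 84 genes moved more with the batch than with the siRNA, and in opposite directions in the assays. In 3'READS it was 5.61% and 3.97% in siCtrl, 6.12% and 4.34% in siPaf1, 6.21% and 3.63% in siCdc73, and 3.79% in siSki8. The 3 libraries of batch 1 were above all 4 of batch 2. In RNA-seq it was 1.59% and 3.12% in siCtrl, 1.86% and 4.11% in siPaf1, 1.99% and 4.90% in siCdc73, and 3.34% in siSki8. Here the batch 2 libraries were the higher ones without overlap. With 2 libraries against 2, a two-sided exact permutation test cannot go below p = 0.33, so no test of the shares was made. The 95% Wilson intervals, which cover counting error only, were narrow, as in siPaf1 of batch 2 in RNA-seq (4.08% to 4.13%). Within each batch, siPaf1 was above siCtrl in both assays. siCdc73 was above siCtrl in both batches of RNA-seq and in batch 1 of 3'READS, but below it in batch 2 of 3'READS.

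Gene by gene, the batch difference had the same form. In RNA-seq, the median log2 difference of batch 2 from batch 1 over the 39 members that passed the filter on low counts was 0.68 in siCtrl, 0.67 in siPaf1 and 0.85 in siCdc73, against 0.00, -0.05 and -0.01 over all 6521 genes. In 3'READS, it was -0.36, -0.46 and -0.49 over 79 members, against 0.01, 0.08 and 0.04 over 12579 genes. The filter kept 39 of 42 members in RNA-seq, leaving out Rpl3l, Rpl10l and Rpl39l. It kept 79 of 84 in 3'READS, leaving out Rpl3l, Rpl24, Rpl39l, Rps18 and Rps29. The spread within this batch difference was large. Rps20, a small subunit protein, was 2.80 higher in batch 2 of siCtrl on the log2 scale in RNA-seq, at 122 against 811 RPKM. In 3'READS Rps20 was at 993 and 967 CPM in the same libraries. Rpl12 went the other way from most members in 3'READS, with 0.948 and 38.5 CPM in siCtrl, 2.69 and 28.2 in siPaf1, 4.53 and 38.7 in siCdc73, and 49.4 in siSki8. What differed between the batches is not given in the labels.

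**Figure D3:**
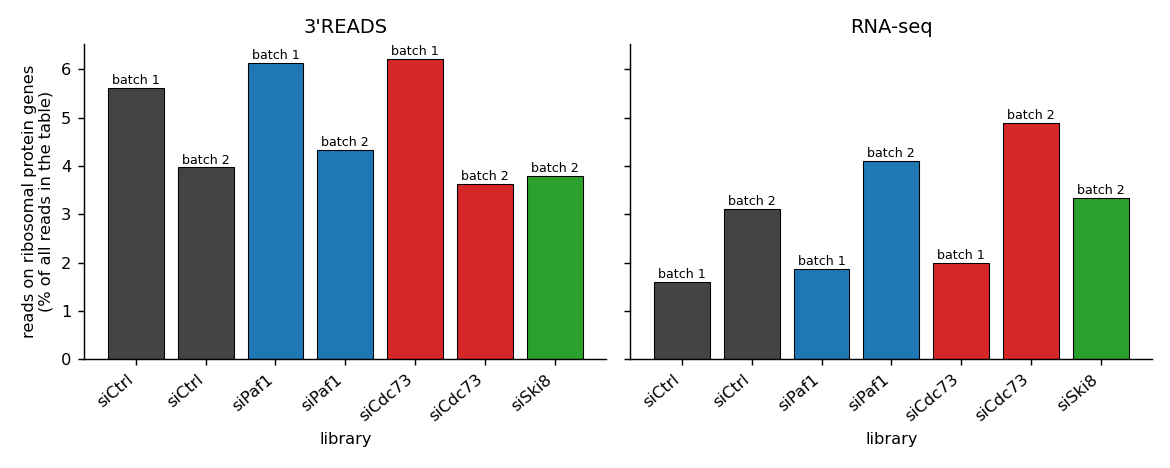
Share of all reads of a library that fell on ribosomal protein genes, in percent, by siRNA, for 3'READS and RNA-seq, with batch 1 and batch 2 marked. In 3'READS, batch 1 libraries lie at 5.61% to 6.21% and batch 2 libraries at 3.63% to 4.34%, and in RNA-seq the order of the batches is turned, at 1.59% to 1.99% against 3.12% to 4.90%.

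The comparison of each knockdown with siCtrl asked whether ribosomal protein mRNA changes when a Paf1C subunit is depleted. Without a batch term, edgeR's quasi-likelihood test called 0 of 39 members in RNA-seq after siPaf1, siCdc73 or siSki8, where it called 0% of all genes in each comparison. At an unadjusted p under 0.05, 1, 2 and 1 members passed, beside 17.7%, 21.1% and 5.54% of all genes. DESeq2 called 1, 0 and 0 members, beside 5.98%, 8.36% and 0.0767% of all genes. In 3'READS edgeR called 0 of 79 members in each comparison, again with 0% of all genes, and 0, 2 and 0 passed unadjusted, beside 13.5%, 15.3% and 3.33% of all genes. DESeq2 called 0, 0 and 0 members, beside 3.92%, 5.67% and 0% of all genes. With all libraries the member medians lay above 0, but leaving out 1 library turned some of them below 0. In RNA-seq the siPaf1 median was -0.37 without siPaf1 of batch 2 and -0.20 without siCtrl of batch 1, and the siCdc73 median was -0.13 without siCdc73 of batch 2. In 3'READS the siPaf1 median was -0.18 without siPaf1 of batch 1 and -0.03 without siCtrl of batch 2. In RNA-seq the medians with all libraries were 0.17, 0.35 and 0.56 on the log2 scale after siPaf1, siCdc73 and siSki8, with 25, 31 and 35 of 39 above 0, while the medians of all genes were 0.01, -0.02 and -0.02. In 3'READS they were 0.11, 0.28 and 0.07, with 49, 59 and 42 of 79 above 0, and 0.06, 0.00 and -0.00 over all genes. Since siSki8 was made in batch 2 alone, its values without a batch term also hold the batch difference. With the block its medians were 0.37 in RNA-seq (28 of 39 above 0) and 0.21 in 3'READS (55 of 79), and within batch 2 they were 0.38 and 0.25. The size of the RNA-seq medians depended on the scaling. With library size alone in place of TMM factors, they were 0.19, 0.19 and 0.25, and the median of all genes moved to 0.03, -0.18 and -0.35, so that the members stayed above all genes under this scaling. The study's rule for RNA-seq (1.4-fold, Fisher's exact test p under 0.01) was applied here to pooled reads of both assays. On those reads, the siPaf1 medians of members were below those of all genes. They were 0.01 against 0.11 in RNA-seq and 0.14 against 0.24 in 3'READS.

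The labels give the batches, so the fit with the batch as a replicate block compares libraries within them, and it made calls. In RNA-seq after siPaf1 it called 7 of 39 members (5 higher, 2 lower), a share of 17.9% beside 32.5% of all genes. After siCdc73 it called 10 (9 higher, 1 lower), 25.6% beside 39.9%. After siSki8 it called 2 (both higher), 5.13% beside 5.43%. The shares of members were below those of all genes after siPaf1 and siCdc73 and close to that of all genes after siSki8, without a test of the difference. Most calls were upward.

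The higher calls after siCdc73 and siPaf1 were led by the stalk and by Rps20. The P stalk of the large subunit, made of Rplp0, Rplp1 and Rplp2, binds and activates the elongation factors. Rplp0, its base, was at 439 and 840 RPKM in siCtrl, 961 and 1420 in siPaf1, 907 and 1959 in siCdc73, and 791 in siSki8. In each batch siPaf1 and siCdc73 lay above siCtrl, and all 4 of these libraries lay above both siCtrl libraries. With the block, the log2 change of Rplp0 was 0.93 ± 0.21 (SE; edgeR adjusted p = 0.00106) after siPaf1 and 1.27 ± 0.21 (adjusted p = 2.14e-05) after siCdc73. Rplp1 rose from 1597 and 3723 RPKM to 2440 and 8912 after siPaf1 and to 2635 and 11678 after siCdc73, with 2299 after siSki8. Its change was 0.89 ± 0.22 (edgeR adjusted p = 0.00252) and 1.31 ± 0.22 (adjusted p = 2.88e-05). Rplp2 was at 656, 1010, 709, 1322, 814, 1552 and 1254 RPKM, and it passed after siCdc73 (0.59 ± 0.21, edgeR adjusted p = 0.0273) and not after siPaf1 (0.23 ± 0.21, adjusted p = 0.442).

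Rps20 was at 122 and 811 RPKM in siCtrl, 348 and 1617 in siPaf1, 213 and 1691 in siCdc73, and 1023 in siSki8. It was higher than siCtrl within both batches after each knockdown that was replicated, although the batches stood far apart. The blocked change was 1.24 ± 0.23 (edgeR adjusted p = 9.73e-05) after siPaf1 and 1.07 ± 0.23 (adjusted p = 0.000406) after siCdc73. Rpl27, of the large subunit, also passed after both, at 0.81 and 1.07. Rpl15, Rpl4, Rpl13a and Rps16 passed after siCdc73 (1.03, 0.79, 0.73 and 0.65). These calls alone do not show that the knockdowns differ. In a direct comparison of siPaf1 with siCdc73 with the block, only Rpl4 of these passed in RNA-seq. Its change after siPaf1 minus that after siCdc73 was -0.715 (edgeR adjusted p = 0.00871), and in 3'READS -0.98 (edgeR adjusted p = 0.0234). That comparison called 4 of 39 members beside 1841 of 6521 genes in RNA-seq. After siSki8, Rpl7a, host of 4 snoRNAs, was the leading call with 137 RPKM against 39.4 and 77.7 in siCtrl, 45.0 and 101 in siPaf1 and 46.5 and 70.4 in siCdc73, a change of 1.11 ± 0.29 (edgeR adjusted p = 0.0226).

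Calls of lower RNA were made for Rpl22l1 and Rpl10. Rpl22l1, the paralog of Rpl22, was at 790 and 655 RPKM in siCtrl, 252 and 286 in siPaf1, 359 and 336 in siCdc73, and 1136 in siSki8. The siPaf1 and siCdc73 libraries lay below both siCtrl libraries and the siSki8 library above them, so that here the groups did not overlap across batches. It fell by 1.44 ± 0.23 on the log2 scale after siPaf1 (edgeR with the block, adjusted p = 1.02e-05) and by 0.92 ± 0.22 after siCdc73 (adjusted p = 0.00139), and it rose by 0.95 ± 0.28 after siSki8 (adjusted p = 0.043). Without the block, the changes were close (-1.44 and -0.92) and did not pass by edgeR, while DESeq2 called that after siPaf1 (-1.41). Rpl10, a late-joining protein of the large subunit, fell by 0.85 ± 0.25 after siPaf1 (edgeR with the block, adjusted p = 0.00981), with 56.6 and 60.6 RPKM in siCtrl, 24.1 and 45.2 in siPaf1, 40.7 and 60.4 in siCdc73, and 77.5 in siSki8. Rps6, the substrate of S6 kinase, had 11.5 and 5.81 RPKM in siCtrl and 3.86 and 5.35 in siPaf1, and just missed the threshold (-0.92 ± 0.36, edgeR with the block, adjusted p = 0.0501).

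Leaving out 1 library at a time with the block, Rplp0 and Rps20 and Rpl22l1 after siPaf1, and Rplp0 and Rplp1 after siCdc73, were called in all 7 fits. The other higher calls rested on fewer: after siCdc73, Rpl27 and Rpl4 held in 5 of 7, Rpl13a, Rplp2 and Rps16 in 4 (highest edgeR adjusted p = 0.348, 0.368 and 0.73) and Rpl15 in 3, and after siPaf1 Rpl27 held in 5. Each of these was lost without siCtrl of batch 2 and without the knockdown library of batch 2. Rplp1 after siPaf1 was lost without siCtrl of batch 2 (highest adjusted p = 0.19, by edgeR). Rps20 after siCdc73 was lost without siCdc73 of batch 2 (edgeR adjusted p = 0.134). Rpl22l1 after siCdc73 was lost without siCtrl of batch 1 or either siCdc73 library. Rpl10 was lost without siCtrl or siPaf1 of batch 1. Both calls after siSki8 were lost without either siCtrl or either siCdc73 library, which leaves them resting on single libraries. The counts moved by over 1.5 times with several libraries. After siCdc73 they were 2, 4 and 6 members without siCdc73 of batch 2, siCtrl of batch 2 and siCtrl of batch 1. After siPaf1 they rose to 12 without siPaf1 of batch 1. After siSki8 they were 0 without either siCdc73 library or siCtrl of batch 1, 1 without siCtrl of batch 2, and 7 and 8 without siPaf1 of batch 1 and of batch 2.

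Across all members, the direction was the same in both batches for 20 of 39 after siPaf1 and for 25 of 39 after siCdc73 in RNA-seq, and this share was not above that of all genes (74.2% and 83.1%). Of these, 15 were higher and 5 lower after siPaf1, and 23 were higher and 2 lower after siCdc73. In 3'READS the direction was shared for 44 of 79 after siPaf1 and 54 of 79 after siCdc73, with 68.8% and 74.6% over all genes. By subunit, the blocked RNA-seq medians of the 25 large subunit genes were 0.23, 0.51 and 0.38 for siPaf1, siCdc73 and siSki8, and those of the 14 small subunit genes were 0.05, 0.15 and 0.26.

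**Figure D4:**
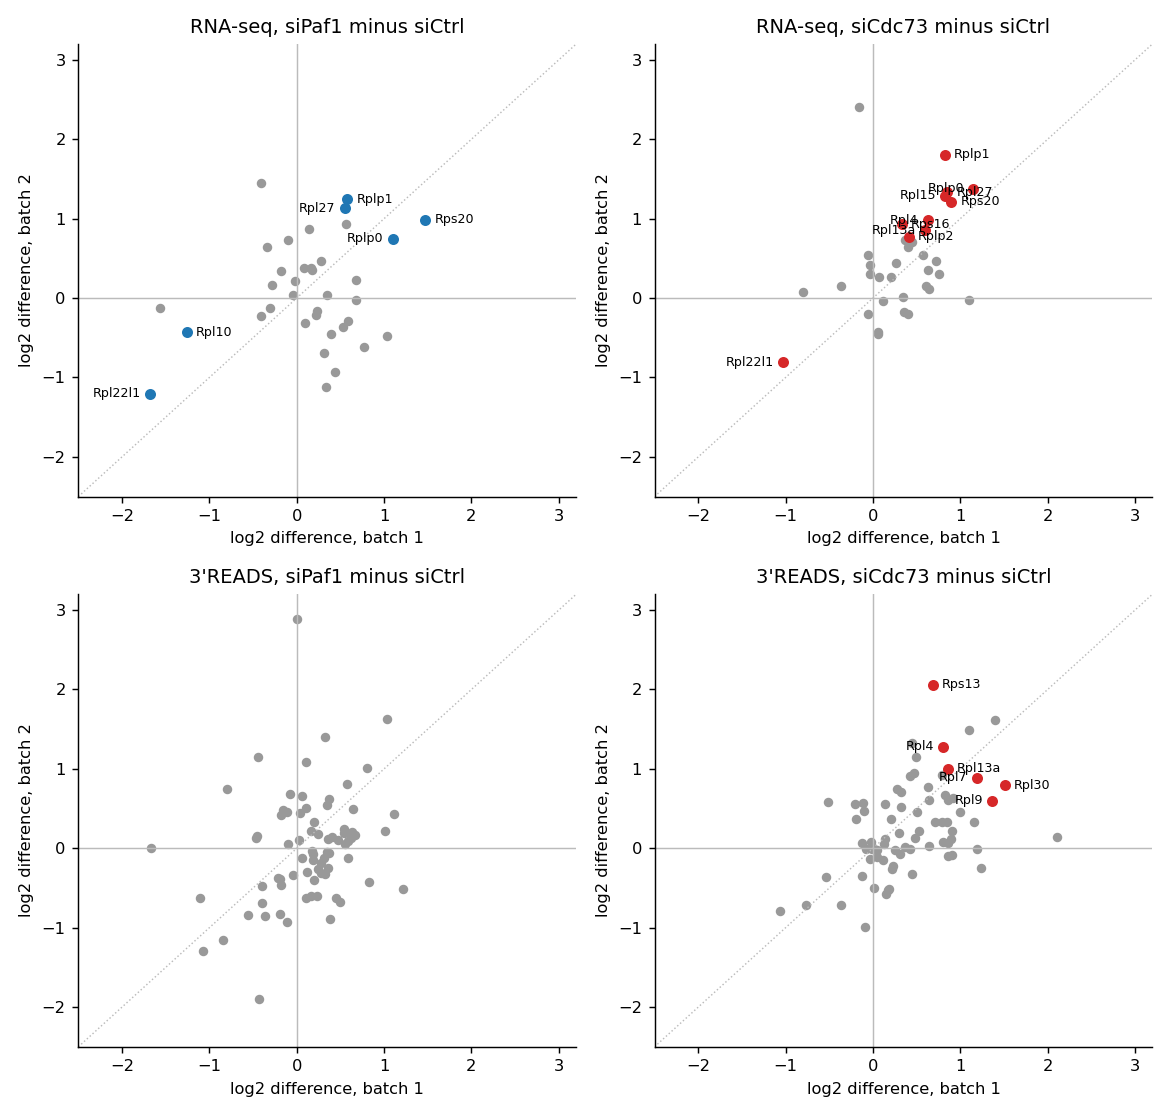
Log2 difference from siCtrl within batch 2 against that within batch 1, with a panel for each assay and replicated knockdown, and 1 point for each member reported here and the members called with the replicate block named. Rplp0, Rplp1 and Rps20 lie in the upper right of the RNA-seq panels and Rpl22l1 in the lower left, and most members scatter around 0 in both batches.

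In 3'READS the blocked fit called 0 of 79 members after siPaf1 (18.8% of all genes), with 8 at an unadjusted p under 0.05 (33.3% of all genes) and 1 call by DESeq2 with the block (14.8%). After siCdc73 it called 6, all higher, or 7.59% beside 22.5% of all genes. After siSki8 it called 0 (0.151% of all genes), with 5 unadjusted (11.6%) and 2 calls by DESeq2 with the block (1.6%). The 6 were Rpl4 (1.05), Rpl7 (1.04), Rps13 (1.39), Rpl13a (0.93), Rpl9 (0.98) and Rpl30 (1.09), on the log2 scale. Rpl4, a core protein near the exit tunnel that hosts 5 snoRNAs, was at 1066 and 531 CPM in siCtrl, 1785 and 1176 in siCdc73, and 1190, 599 and 770 in siPaf1 and siSki8. Within both batches siCdc73 was the highest library, and the change had an SE of 0.27 (edgeR with the block, adjusted p = 0.0108). Rpl4 and Rpl13a were called higher after siCdc73 in RNA-seq as well. Rps13, of the small subunit, went from 6.50 and 5.92 CPM to 10.2 and 23.1 after siCdc73, while siPaf1 had 8.96 and 16.8 and siSki8 had 9.16 (SE 0.39, edgeR with the block, adjusted p = 0.0168).

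The P stalk genes and Rps20, called in RNA-seq, did not pass in 3'READS. Rplp0 had 0.73 ± 0.27 after siCdc73 (edgeR with the block, adjusted p = 0.0594), Rplp1 0.77 ± 0.30 (adjusted p = 0.0754) and Rps20 0.75 ± 0.27 (adjusted p = 0.059). Rps20 had 0.78 ± 0.27 after siPaf1 (edgeR with the block, adjusted p = 0.0568). All 3 were above siCtrl within both batches. Rpl22l1, with 181 sense reads in all, had -0.50 ± 0.53 after siPaf1 and 0.02 ± 0.58 after siCdc73, and so the gene total did not pass. Its reads outside the coding exon site numbered 22 and 22 in siCtrl, 11 and 1 in siPaf1, 9 and 11 in siCdc73, and 16 in siSki8, while those at the upstream site were 6 and 4, 19 and 17, 11 and 23, and 9. The count of 6 after siCdc73 moved to between 1 and 19 when 1 library was left out: 1 and 2 without siCtrl of batch 1 and of batch 2, 3 without either siCdc73 library, and 18 and 19 without siPaf1 of batch 1 and of batch 2. None of the 6 held in every such fit. After siPaf1 the count of 0 moved to at most 4, without siPaf1 of batch 1.

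The genes listed for a known extra role were Rpl5, Rpl11, Rps6, Rps14, Rps19, Rps27a and the P stalk genes. None was called against siCtrl in the blocked fits of 3'READS, and the P stalk genes were called in RNA-seq as given above. Between siPaf1 and siCdc73, Rps6 passed in 3'READS (-1.007, edgeR with the block, adjusted p = 0.0492). That comparison called 3 of 79 members beside 1809 of 12579 genes. Rpl5 and Rpl11, which bind Mdm2 and stabilise p53 when ribosome assembly is disturbed, had blocked 3'READS changes of 0.01 and 0.36 after siPaf1 and 0.06 and 0.69 after siCdc73. Rpl11 after siSki8 had the largest value of this group, 1.44 ± 0.36, and did not pass (edgeR with the block, adjusted p = 0.107). Rps14 and Rps27a, the latter encoding a ubiquitin fusion, had 0.05 and -0.21 after siPaf1 and 0.44 and 0.36 after siCdc73.

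The paralog pairs differed in which copy was read. Rps27l made up 99.8% to 100% of the 3'READS reads of the pair with Rps27, whose own level was 1.73 to 5.89 CPM and whose transcript end had 0% unique words. Rpl36al made up 93.8% to 99.5% of its pair with Rpl36a, and both had 0% unique words at the end. For Rpl22l1 the share in the pair with Rpl22 was 0.473% and 0.626% in siCtrl, 0.338% and 0.199% in siPaf1, 0.53% and 0.415% in siCdc73, and 0.859% in siSki8. The siPaf1 libraries were the lowest and siSki8 the highest. Rpl7l1 held 9.61% to 29.6% of its pair with Rpl7, with its lowest shares, 9.61% and 13.6%, in siCdc73, where Rpl7 was called higher. Rpl39l and Rpl10l, with 10 and 20 reads, were at most 0.169% and 6.92% of their pairs.

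The members' genes were compact. In the 83 found in the reference, the median span was 3243 bases with a median of 4 introns, and 29 of them held 55 snoRNAs. Of 82 main sites, 50 lay within 10 bases of an annotated transcript end and 61 within 100. In 51 genes the main site took at least 90% of the sense reads. The 3'-most exon held 230 sites, introns 18, internal exons 4, and 17 sites were antisense.

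Switching between the proximal and the distal site of the last exon could be tested in 27 of the 34 members with a pair of sites that each held at least 5% of the reads, a median of 227 bases apart. edgeR without a batch term called 0 of 27 in each of the 3 comparisons (0% of all genes each, and 0 at an unadjusted p under 0.05, beside 4.97%, 4.14% and 1.23% of all genes). The blocked fit called 2 after siPaf1 (6.55% of all genes), 1 after siCdc73 (4.29%) and 0 after siSki8 (0.0657%, with 2 unadjusted beside 7.64%), all toward the proximal site. Rpl36, a small large-subunit protein, had its sites 259 bases apart on chromosome 17. The proximal site took 54.0% and 52.5% of the pair in siCtrl, 80.3% and 100% in siPaf1, 86.7% and 89.6% in siCdc73, and 73.2% in siSki8. The siCtrl libraries were below all others. The log2 ratio of proximal to distal changed by 2.98 ± 0.86 after siPaf1 (edgeR with the block, adjusted p = 0.0171) and 2.65 ± 0.83 after siCdc73 (adjusted p = 0.0435). The distal site had 74 and 29 reads in siCtrl and 28 and 0 in siPaf1, so the ratio rests on few reads. Rpl21 passed after siPaf1 (2.69 ± 0.78, edgeR with the block, adjusted p = 0.0183), with 94.6% and 68.6% proximal reads in siCtrl and 100% and 91.3% in siPaf1. All 3 calls were lost without either siCtrl library. The call of Rpl36 after siPaf1 was also lost without siPaf1 of batch 2, that after siCdc73 without either siCdc73 library, and that of Rpl21 without either siPaf1 library. Rps27l, the most deeply read pair, with sites 38 bases apart, had 70.0% and 77.0% proximal reads in siCtrl, 65.0% and 82.8% in siPaf1, and 69.3% and 78.5% in siCdc73, which overlapped.

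Sites upstream of the last exon were rare in ribosomal protein genes. Introns and internal exons gave 477 of 3028359 sense reads, 0.0158%, against 2.76% over all genes. At least 1 such site was listed for 17 of the 84 genes (20.2%), against 43.9% of all genes, which are mostly longer. Among the 27 members of at most 10 kb and at least 100 CPM, only Rpl5 had one, and upstream sites took 0.00102% of the reads. In 452 other genes of that kind, 12 had one and the share was 0.0905%. In 7 members, upstream sites reached 5% of the sense reads, none of them among the 27.

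The upstream sites with the most reads are shown as above, with AATAAA or ATTAAA in capitals where present. Rpl13 lies at chr8:125628687-125628716 (plus strand, intron 5), Rpl22l1 at chr3:28705737-28705766 (plus, coding exon 3), Rpl3 at chr15:79909392-79909421 (minus, intron 6), Rpl38 at chr11:114530860-114530889 (plus, intron 3), Rpl5 at chr5:108334102-108334131 (plus, intron 6), Rplp1 at chr9:61762154-61762183 (minus, intron 1), Rpl7a at chr2:26767869-26767898 (plus, coding exon 5) and Rpl28 at chr7:4744845-4744874 (plus, intron 1).
Rpl13: gttttAATAAAttcaccagaatgtgcctta
Rpl22l1: aagAATAAAatcacagttgtttctgagaaa
Rpl3: tctagaacagagttccagcaaatagtgttt
Rpl38: aatagATTAAAacaagcaggttcaaagttg
Rpl5: ttagatgctAATAAAtatgggcttctagca
Rplp1: acgacgaggtgacggtcacggtaagtgcgg
Rpl7a: tgtgttgtatgttccaggagtcaatacagt
Rpl28: cgcttacccagccgcctgtccacggcctgc
Of the 22 upstream sites of members, 4 had AATAAA, 2 ATTAAA and 16 neither (72.7%), while 44.0% of 17733 upstream sites of all genes had AATAAA and 40.8% neither. Of the 8 sites shown, 4 carried one of the hexamers. One of the 22 was followed by an A-rich stretch, against 7.47% of all upstream sites.

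The reads at these sites were few but differed between libraries. The site of Rpl5, in an intron that also holds SNORA66, had 0 and 0 reads in siCtrl, 6 and 21 in siPaf1, 1 and 2 in siCdc73, and 0 in siSki8, of 645 to 2010 sense reads of the gene. Per 1000 sense reads this was 6.59 and 10.4 in siPaf1 and at most 1.55 elsewhere, so siPaf1 stood above every other library in both batches. With 3 reads as the limit that 0 reads of 2241 in siCtrl allow (1.34 per 1000), pooled siPaf1 was at least 6.9-fold higher. This bound covers counting error only. For Rpl38 the site had 21.3 and 34.5 reads per 1000 in siCtrl, 200 and 100 in siPaf1, 469 and 171 in siCdc73, and 10.6 in siSki8. For Rpl22l1 it had 214 and 154 in siCtrl, 633 and 944 in siPaf1, 550 and 676 in siCdc73, and 360 in siSki8. In both genes the siPaf1 and siCdc73 libraries were above siCtrl without overlap. For Rpl38 the site had 1 and 2 reads in siCtrl, 8 and 2 in siPaf1, and 15 and 14 in siCdc73. Its sense reads numbered 20 to 94 in each library, so its ratios rest on few reads. For Rpl28 the site had 0 reads in siCtrl and siSki8, 2 and 0 in siPaf1, and 3 and 8 in siCdc73. Pooled siCdc73 was at least 7.24-fold above the limit of 3 reads in siCtrl. Rpl5 and Rpl28 were picked for their upstream reads and had 0 in siCtrl, so both bounds carry that selection. Rpl38 was picked in the same way and reached 10 upstream reads only through the siPaf1 and siCdc73 libraries. Its lack of overlap with siCtrl therefore carries that selection too.

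The upstream reads were tested against the last exon in 6 members (Rpl5, Rpl7a, Rpl22l1, Rpl28, Rpl38 and Rplp1). edgeR without a batch term called 0 after siPaf1 (0.117% of all genes, 2 members at an unadjusted p under 0.05 beside 15.9%), 0 after siCdc73 (0.176%, 2 unadjusted beside 18.3%) and 0 after siSki8 (0%, 0 unadjusted). With the block it called Rpl5 after siPaf1, where 10.8% of all genes were called, Rpl28 after siCdc73 (13.6%) and 0 after siSki8 (0%, 0 unadjusted). Both genes reached the minimum of 10 upstream reads only through the libraries where they are high, with 0 reads in siCtrl, so a difference was built into their selection. The adjusted p of the edgeR fit was 0.00427 for Rpl5 and 0.0422 for Rpl28. Rpl38 and Rpl22l1 did not pass after siCdc73 (edgeR with the block, adjusted p = 0.0749 and 0.258) or siPaf1 (0.34 and 0.112). The call of Rpl5 was lost without siCtrl of batch 2 (edgeR adjusted p = 0.28), and it had no value without siPaf1 of batch 2. That of Rpl28 held in 2 of 6 such fits and was lost without either siCtrl library, siPaf1 of batch 1 or siCdc73 of batch 1. Over all genes tested, the median log2 change of the upstream share in the blocked fit was 0.62, 1.06 and -0.03 for siPaf1, siCdc73 and siSki8. No median is given for the members, since only Rpl22l1 reached the minimum of 10 upstream reads without the siPaf1 and siCdc73 libraries.

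**Figure D5:**
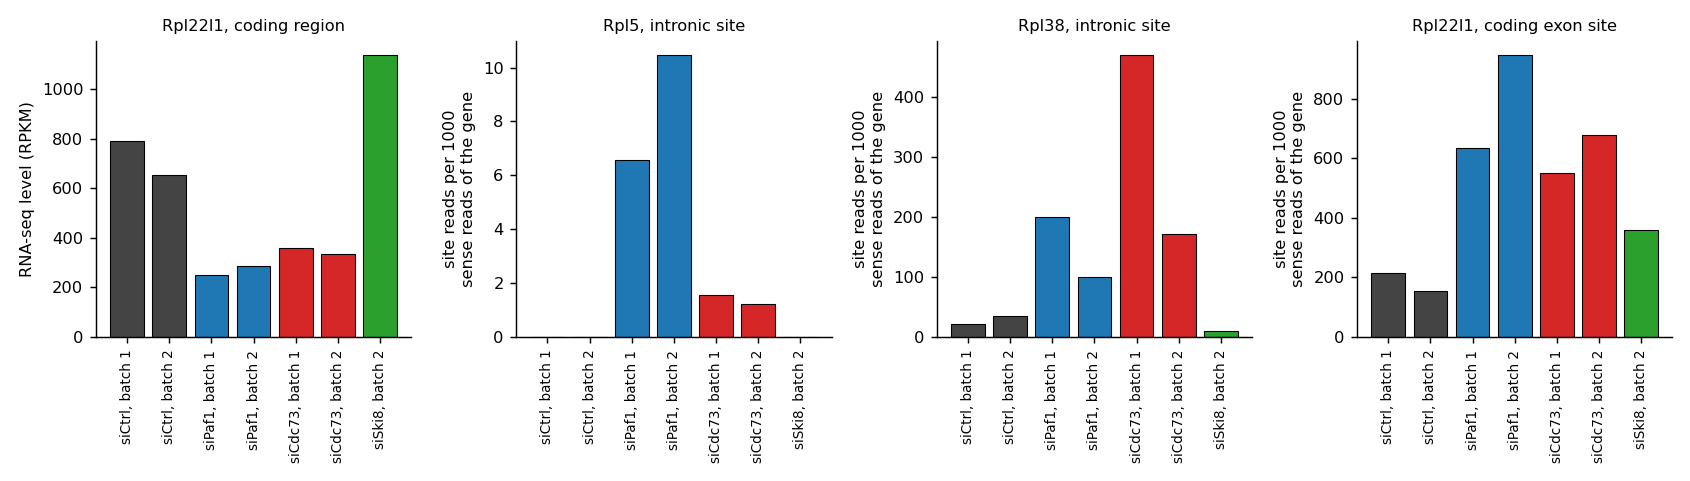
Values by library, as bars coloured by siRNA, of the RNA-seq level of Rpl22l1 (RPKM) and of the reads per 1000 sense reads of the gene at the intronic sites of Rpl5 and Rpl38 and the coding exon site of Rpl22l1 in 3'READS. The RNA-seq level of Rpl22l1 is lowest in siPaf1 (252 and 286 RPKM). Within each batch, siPaf1 is highest for the sites of Rpl5 (6.59 and 10.4) and Rpl22l1 (633 and 944).

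Rpl13 and Rpl3 were read mainly at upstream sites in this table. The intron 5 site was the only sense site of Rpl13, with 6, 15, 16, 73, 3, 11 and 10 reads, and the annotation places Gm20388 on the same strand there, so these reads cannot be given to Rpl13 with certainty. Its 3'READS level is that of this site and not that of its mRNA end. For Rpl3, 70.7% of 123 sense reads were upstream, with 2, 6, 4, 10, 5, 25 and 18 reads at the intron 6 site.

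Antisense sites were assigned to 8 of 84 members (9.52%), beside 14.2% of all genes, and to 0 of the 27 short and highly expressed members, beside 17 of 452 other such genes. Antisense reads summed to 10 or more in 6 members (7.14%), close to the 7.16% of all genes. The share was 3.54% in the other short, highly expressed genes. Of the 8, 3 could be tested, among them Rpl3l and Rps12, and edgeR called 0 of them after siPaf1, siCdc73 and siSki8 without a batch term (0.115%, 0.346% and 0% of all genes, and 0, 2 and 0 unadjusted) and 0 with the block (3.11%, 3.69% and 0.231%, and 1, 2 and 0 unadjusted). At Rpl3l the sites lay at positions 24862906 and 24862932 of chromosome 17, before the gene's start at 24864774, and had 81, 29, 46, 15, 13, 16 and 57 and 54, 61, 32, 35, 6, 41 and 66 reads. On the strand of this RNA, the nearest coding gene was Ndufb10, 1483 and 1509 bases away, and Rpl3l had 5 sense reads, so the assignment of these sites to Rpl3l is uncertain.

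At the 5' end, a TOP tract was looked for as C followed by at least 4 letters C or T on the transcribed strand, beginning within 10 bases of the start that RefSeq lists (GRCm38.p6). It was found in 39 of the 63 members in the promoter table (61.9%), beside 34.4% of 27025 genes. Counted over starts, it was at 54.7% of 75 and 30.7% of 32851. Tracts of members named above are shown with the tract in capitals, 30 bases from 10 before the start. Rpl7a lies at chr2:26910797-26910826 (plus strand), Rpl35a at chr16:33056472-33056501 (plus), Rpl15 at chr14:18270967-18270996 (minus), Rpl22l1 at chr3:28805498-28805527 (plus) and Rpl38 at chr11:114668570-114668599 (plus).
Rpl7a: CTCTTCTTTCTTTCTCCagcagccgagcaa
Rpl35a: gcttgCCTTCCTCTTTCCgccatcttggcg
Rpl15: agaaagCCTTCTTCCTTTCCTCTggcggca
Rpl22l1: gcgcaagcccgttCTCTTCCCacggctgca
Rpl38: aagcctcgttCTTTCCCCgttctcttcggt
Rplp0, Rpl4 and Rps15 had no such run within this window, which says only that these letters are not there. Rpl22l1, which fell after siPaf1 and siCdc73, and Rpl15, which was called higher after siCdc73, both held one.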

How the data were processed

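RNA-seq and 3'READS libraries of siRNA-treated C2C12 cells were analysed, 7 of each, and the other sample types of the series were not used here. Per the labels and the methods of the study, the authors aligned the libraries with bowtie2 (local mode, version not given in the sources used here) against mm9, kept uniquely mapped reads, and deposited raw counts per gene over the coding region for RNA-seq (strand-specific, rRNA removed) and raw counts of reads with non-genomic poly(A) per pA site for 3'READS. The authors also deposited RPKM values for RNA-seq, which were used only to compare levels between genes. No column of a sample outside the labels was used.

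Counts were tested with edgeR 4.0.16 (limma 3.58.1, R 4.3.3) by the quasi-likelihood test with TMM factors and its filter on low counts, fitted on all genes and all 7 libraries, with Benjamini-Hochberg adjustment over all genes and a threshold of 0.05. Isoform ratios (proximal to distal, upstream to last exon, antisense to all sense reads) were tested as an interaction of site and siRNA in pairs that averaged at least 20 reads. Sites of the last exon were used at 5% or more of the reads, and upstream and antisense sites from 10 reads. Log2 changes of edgeR were shrunken with a prior count of 2, or 0.5 for isoform ratios. Each SE was derived from the test, as the size of the change over the square root of its F statistic. DESeq2 1.42.0 was an alternative. Levels were set in CPM of the library total. Sequence was read from mm9 with its annotation (pysam 0.24.0) and word uniqueness was counted with numba 0.67.0. Python 3.11.15, pandas 2.3.3, numpy 2.4.6, scipy 1.17.1 and matplotlib 3.10.9 were used.

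The replicate numbers are batches by the labels. Deviations from the group means of same-numbered libraries correlated at 0.62 to 0.748 (Pearson's r, all genes) in RNA-seq and 0.432 to 0.61 in 3'READS over the 3 pairs of groups, and so the batch was fitted as a block beside the fit without it. Nothing states that the libraries came from separate cultures, and p-values measure the spread between these libraries.

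Simulated data for siPaf1 against siCtrl had the real means and library sizes, with 200 genes changed by 2-fold. The blocked test recovered 171 of 200 among 6345 in RNA-seq and 157 of 200 among 11848 in 3'READS, with 5 and 9 wrong calls. The fit without the block recovered 0 and 0. Every simulated group had the same batch difference and a fixed spread. That spread was below the biological coefficient of variation of the real blocked fits (0.179 and 0.247). The simulation therefore does not give the power in the real data.

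The members, lists and rules were chosen with earlier results of these data known. Genes named were the paralog pairs, at most 3 members in each direction with the smallest blocked p among those with the same direction in both batches and at least 50 reads on average, the 5 highest and 3 lowest, those with the most upstream reads or at least 5% of reads upstream, those with at least 10 antisense reads, genes with a known extra role and the siRNA targets. Further members were named after their values were seen: those called with the block, Rpl12, Rpl29, Rpl21, Rps18 and Rpl24. Results of some genes are not reported here, and counts and medians over the members include them.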

Additional observations from a re-analysis of the deposited data

Results flagged for a closer look

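Differences between knockdowns were tested over all genes in the fit with the replicate block, as 1 contrast between their changes against siCtrl. Listed here are members whose changes had opposite signs and were above 0.5 in size in both, so a difference was built into their choice. In RNA-seq, siPaf1 against siSki8 called 6 of 39 members beside 1862 of 6521 genes, and siCdc73 against siSki8 called 6 beside 1866. In 3'READS, siPaf1 against siSki8 called 3 of 79 members beside 1696 of 12579 genes. Since siSki8 is a single library, its spread is assumed to be that of the other groups. In RNA-seq, the change of Rpl22l1 after siPaf1 minus that after siSki8 was -2.395 on the log2 scale (edgeR adjusted p = 1.88e-07), and the change after siCdc73 minus that after siSki8 was -1.875 (adjusted p = 7.81e-06). Rplp1 differed in the other direction, by 1.609 for siPaf1 (edgeR adjusted p = 0.000157) and 2.024 for siCdc73 (adjusted p = 1e-05). In 3'READS, siPaf1 and siSki8 differed by -2.212 for Rpl36a (edgeR adjusted p = 0.0339) and -2.224 for Rpl38 (adjusted p = 0.0193). Rpl36a had 11 to 38 reads in each library, and Rpl38 had 20 to 94. The same contrasts without the block passed for 0 members (edgeR).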

How the results depend on the processing

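The block decides whether members are called. In RNA-seq the counts after siPaf1, siCdc73 and siSki8 were 0, 0 and 0 without it and 7, 10 and 2 with it, 7, 9 and 2 by DESeq2 with it, and 1, 0 and 0 by DESeq2 without it. With the block and library size alone they were 8, 7 and 1, and with TMM factors computed without the members 7, 10 and 2, both chosen after seeing the data. The study's rule on pooled reads gave 13, 10 and 15 of 40, beside 40.8%, 46.4% and 43.2% of all genes, while DESeq2 with the block called 26.6%, 34.1% and 3.91% of all genes. In 3'READS the counts were 0, 6 and 0 with the block and 1, 8 and 2 by DESeq2 with it. With the block and library size alone they were 2, 5 and 0. With the block and TMM factors without the members they were 0, 6 and 0. By the study's rule for RNA-seq, applied here to 3'READS, they were 19, 23 and 29. All genes were called at 14.8%, 20.0% and 1.6% by DESeq2 with the block and at 46.1%, 46.2% and 32% by the study's rule. The blocked counts for 3'UTR sites were 2 and 1 after siPaf1 and siCdc73, and for upstream sites 1 and 1.

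RNA-seq medians moved as well. After siPaf1 the study's rule gave 0.007, beside 0.105 over all genes. After siCdc73 the median was 0.406 by DESeq2, 0.409 by DESeq2 with the block, 0.186 with library size alone, 0.185 with the block and library size alone, and 0.110 by the study's rule. After siSki8 it was 0.367 with the block, 0.339 by DESeq2 with the block, 0.245 with library size alone, 0.116 with the block and library size alone, 0.369 with the block and TMM factors without the members, and 0.264 by the study's rule. By RPKM the member share of RNA-seq averaged 5.096% in siCtrl, 6.211% in siPaf1 and 6.564% in siCdc73. In siSki8, a single library of batch 2, it was 6.422%, against 6.200% in siCtrl of batch 2. The causes were not tested.

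Leaving out 1 library without the block moved the RNA-seq medians between -0.372 and 0.653, -0.127 and 0.87, and 0.347 and 1.207 for siPaf1, siCdc73 and siSki8, and those of 3'READS between -0.184 and 0.274, 0.04 and 0.524, and 0.009 and 0.248, with 0 calls throughout. With the block, chosen after seeing the data, they stayed between 0.092 and 0.206, 0.263 and 0.447, and 0.253 and 0.386 in RNA-seq and between 0.0 and 0.219, 0.199 and 0.379, and 0.222 and 0.375 in 3'READS. The blocked counts ran from 5 to 12, 2 to 14 and 0 to 8 in RNA-seq, from 0 to 4, 1 to 19 and 0 to 2 in 3'READS, from 0 to 2 and 0 to 1 for 3'UTR sites, and from 0 to 1 for upstream sites. Without siCdc73 of batch 2 and without the block, Rpl13a, Rpl4 and Rps20 after siCdc73 turned to -0.364, -0.043 and -1.094 in RNA-seq, and without siCtrl of batch 2 they reached 1.747, 1.544 and 3.173. Without siPaf1 of batch 2 Rplp1 and Rps20 after siPaf1 turned to -0.209 and -0.520, and without siCtrl of batch 2 they reached 1.876 and 3.05. siSki8 had 1 library and no replicate check.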

Other observations

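Genes around the ribosome are given by their counts and medians in the blocked fit, without a test of any list. Over all genes, this fit called 32.5%, 39.9% and 5.43% in RNA-seq and 18.8%, 22.5% and 0.151% in 3'READS for siPaf1, siCdc73 and siSki8, against which the counts below are to be read. In RNA-seq after siCdc73, 12 of 15 ribosome biogenesis genes lay above 0 with a median log2 change of 0.35 (5 called higher, 1 lower), and after siPaf1 3 of 15 did, with a median of -0.16 (1 higher, 3 lower). After siSki8, 14 of 15 lay above 0, with a median of 0.53 (2 higher). Of 28 genes of the mitochondrial ribosome, whose proteins are encoded in the nucleus, 9 were called higher and 1 lower after siCdc73 (median 0.38), and 5 higher and 3 lower after siPaf1 (median 0.01). In 3'READS, which held 74 of them, 9 were higher and 15 lower after siCdc73 (median -0.07, 36 of 74 above 0). The assays held different sets of these genes and their difference was not tested. Among 18 elongation factors and other TOP genes in 3'READS, 5 were called higher and 0 lower after siPaf1 (median 0.39), and 6 higher and 0 lower after siCdc73 (median 0.46).

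Of 12 genes of RNA polymerase I in 3'READS, 4 were higher and 1 lower after siCdc73 (median 0.36), and 2 higher and 0 lower after siPaf1 (median 0.07). In RNA-seq, which tested 5 of them, 0 were called after siCdc73 (median 0.06), and 0 higher and 1 lower after siPaf1 (median -0.26). Of 13 genes of mTOR signalling and TOP control in 3'READS, 1 was higher and 3 lower after siCdc73 (median -0.26).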
